A study of Mus musculus with 28 samples.

Results

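Translating ribosome affinity purification followed by sequencing (TRAP-Seq) was compared between the ribosome-bound fraction (IP) and the starting homogenate (Input) of the cerebral cortex of conditional knockout (cKO) mice, across all genes. The comparison used 6 libraries, an IP and an Input library from each of 3 cKO mice at P24, of the 12 TRAP-Seq libraries and the 28 samples of the series. The question it addresses is which RNAs the tagged cells of cKO cortex held on their ribosomes, relative to the whole tissue. Besides the mGFAP-Cre driver, the cKO mice carried loxP-flanked alleles of the deleted gene on both chromosomes (loxP/loxP) and a Cre-dependent EGFP/Rpl10a fusion protein, a green fluorescent tag on a protein of the large ribosomal subunit. The Ctrl mice, set beside them in the last comparison, gave 3 IP and 3 Input libraries at P24 in which the same driver turned on the same tag. Ctrl mice of the study are in general littermates with loxP/loxP or loxP/+ alleles and no Cre, but the tag needs Cre, and the exact Ctrl genotype used for TRAP-Seq is not given in the sources used here. The bilateral cortices of 1 mouse were homogenized together, a small part of the supernatant was kept as Input, and tagged ribosomes were pulled from the rest with antibodies to GFP, so that the IP and Input libraries of a number are fractions of 1 animal and were compared as pairs. RNA of both fractions was purified on oligo-dT beads before library preparation. The tag marks every cell in which the driver is or was active, and in tissue libraries fewer cells of a type and less RNA per cell cannot be told apart.

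Astrocytes are the glial cells that take up glutamate and potassium released by neurons, carry water at their endfeet on blood vessels, and supply neurons with lipids, glutamine and serine. In TRAP, an RNA is recovered when it sits on ribosomes that carry the tagged subunit, so a transcript made and translated in tagged cells is more frequent in IP than in Input. A transcript of untagged cells, or one that is not on ribosomes, is less frequent in IP. Because the comparison is of proportions within each library, a higher share of some transcripts lowers that of the others.

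The cKO libraries held between 23327604 and 27242445 counted reads, and 3 counts, taken here as the floor of detection, came to between 0.110 and 0.129 CPM, the count scaled to a common library size. Floors of this kind cover counting error only. The Input library of mouse 1 stood apart from those of mice 2 and 3. Its log2 CPM correlated with theirs, across genes, at r = 0.961 and 0.963, against 0.985 between mice 2 and 3 and between 0.984 and 0.985 among the IP libraries. Long protein-coding genes were lower in it than in the other Input libraries (Spearman rho of the difference with exonic length -0.514 over 13298 genes, a description across genes). Hemoglobin transcripts were between 4.19 and 4.69 times and the noncoding RNA Malat1 2.24 times as high in it as in the mean of the others. Among the astrocyte markers, Gfap was at 0.692, Aldoc at 0.931, Apoe at 0.892 and Aqp4 at 0.410 times that mean. Counts are therefore given with and without mouse 1 where it moves them.

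Of 53342 gene identifiers in the table, 24011 passed the filter on low counts and were tested, and 12943 of them (53.9%) differed between IP and Input at an adjusted p under 0.05 in edgeR's quasi-likelihood test with the mouse as a block. There were 6550 genes higher in IP (27.3%) and 6393 lower (26.6%). A difference of over 2-fold passed the test for 2233 genes toward IP (9.3%) and 2149 toward Input (8.95%). The median log2 fold change over all genes tested was 0.00, and -0.12 over the 15389 protein-coding genes, of which 4038 were higher and 5033 lower in IP. Without mouse 1 the calls came to 16482 and those over 2-fold to 6897. In the plot of IP against Input levels, astrocyte genes lie far above the line of equality and neuronal genes, Malat1 and Bc1 far below it.

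**Figure D1:**
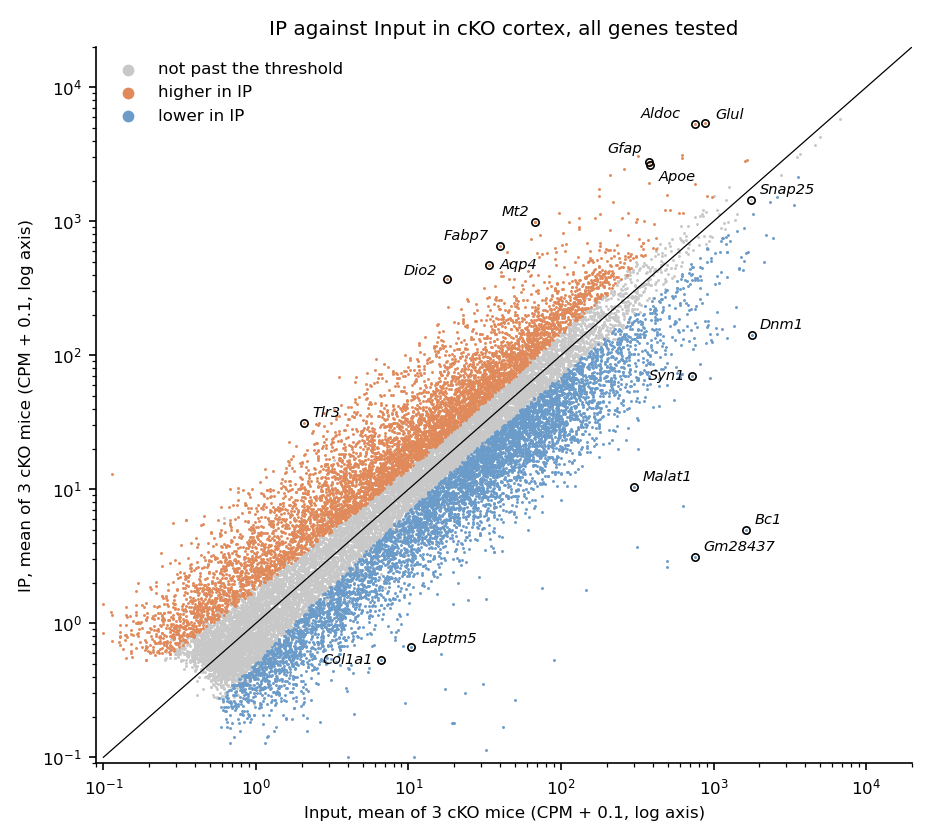
Mean CPM of each tested gene in the 3 IP libraries (vertical, log axis) against the mean in the 3 Input libraries (horizontal, log axis) of cKO mice, each with 0.1 added; the line marks equal levels. The 6550 genes higher in IP are orange and the 6393 lower are blue, with Gfap, Aldoc, Apoe and Aqp4 above the line. Among the genes labelled, Bc1 and Gm28437, a nuclear copy of a mitochondrial gene, are the farthest below it, followed by Malat1.

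The tagged fraction carried the markers of astrocytes. Gfap, the intermediate filament protein of astrocytes, stood at 2469, 3068 and 2803 CPM in the IP libraries of mice 1, 2 and 3 and at 290.3, 491 and 348 CPM in their Input libraries. All 3 IP values lay far above all 3 Input values, a log2 fold change of 2.91 ± 0.21 (SE, adjusted p = 5.26e-05). Aldoc, the aldolase of astrocytes, was at 4857, 4623 and 6367 CPM in IP and 725, 802 and 756 CPM in Input (2.78 ± 0.21), and Apoe, the main lipid carrier that astrocytes secrete, at 1919.8, 2438 and 3585 and 357, 419 and 381 CPM (2.73 ± 0.24). Aqp4, the water channel of astrocyte endfeet, reached 451, 481 and 491 CPM in IP against 17.2, 44.5 and 39.6 CPM in Input, the largest difference of the 4 (3.92 ± 0.30, adjusted p = 5.89e-05). Their log2 fold changes without mouse 1 were 2.85, 2.82, 2.91 and 3.56.

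All 22 members of the astrocyte marker list were higher in IP, each by over 2-fold in the test against that fold, with a median log2 fold change of 2.61. The list ran from 1.63 for Slc7a10, a neutral amino acid transporter, and 1.64 for Aldh1l1, a folate enzyme used as a pan-astrocyte marker, to Gja1 (3.27), the connexin of astrocyte gap junctions, and Aqp4. Summed over the list, CPM lay between 13866 and 19120.4 in the IP and between 2118 and 2845 in the Input libraries. The list medians of mice 1, 2 and 3 taken singly were 2.67, 2.32 and 2.73.

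Among protein-coding genes, the 10 with the largest differences toward IP included genes of thyroid hormone, lipid and vitamin handling. Dio2, the deiodinase that makes active thyroid hormone in astrocytes, stood at 453, 285 and 368 CPM in IP and 13.9, 17.9 and 21.7 CPM in Input, about 20.6-fold apart (4.36 ± 0.28, adjusted p = 4.69e-05). Genes of this set were chosen with IP and Input values that do not overlap, so that separation is not a result. Fabp7, a fatty acid binding protein of radial glia and astrocytes, was at 653, 766 and 543 CPM in IP and 58.7, 32.7 and 28.2 CPM in Input (4.10 ± 0.28), with mouse 1 the highest of the Input libraries. Ttpa, the α-tocopherol transfer protein that carries vitamin E, was at 79.8, 62.96 and 65.3 and 4.54, 3.99 and 4.81 CPM (3.96 ± 0.20), and these values were among the most even over mice. Tlr3, a receptor for double-stranded RNA, stood at 33.8, 26.9 and 33.05 CPM in IP and 1.36, 2.38 and 2.17 CPM in Input (3.99 ± 0.26). Mt2, a metal-binding metallothionein, was far more abundant, at 947, 1228 and 777 CPM in IP and 86.4, 67.1 and 49.2 CPM in Input (3.88 ± 0.24).

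The remaining genes of that set were Aqp4 and 4 genes at lower levels. Nat1, an arylamine N-acetyltransferase, was at 11.6, 9.04 and 9.88 CPM in IP and 0.679, 0.594 and 0.702 CPM in Input (3.93 ± 0.26). Elf5, an ETS family transcription factor better known from epithelia, was at 6.75, 8.602 and 6.55 and 0.467, 0.467 and 0.526 CPM (3.88 ± 0.29), and Folh1, which cleaves N-acetylaspartylglutamate outside cells, at 8.69, 8.95 and 10.6 and 0.467, 0.891 and 0.631 CPM (3.84 ± 0.29). S100a4, a small calcium-binding protein, was at 51.9, 156 and 72.3 CPM in IP and 5.48, 8.66 and 4.07 CPM in Input (3.86 ± 0.26). Mouse 2 had the highest S100a4 value in both fractions, and its IP value was more than 2 times that of either other mouse.

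**Figure D2:**
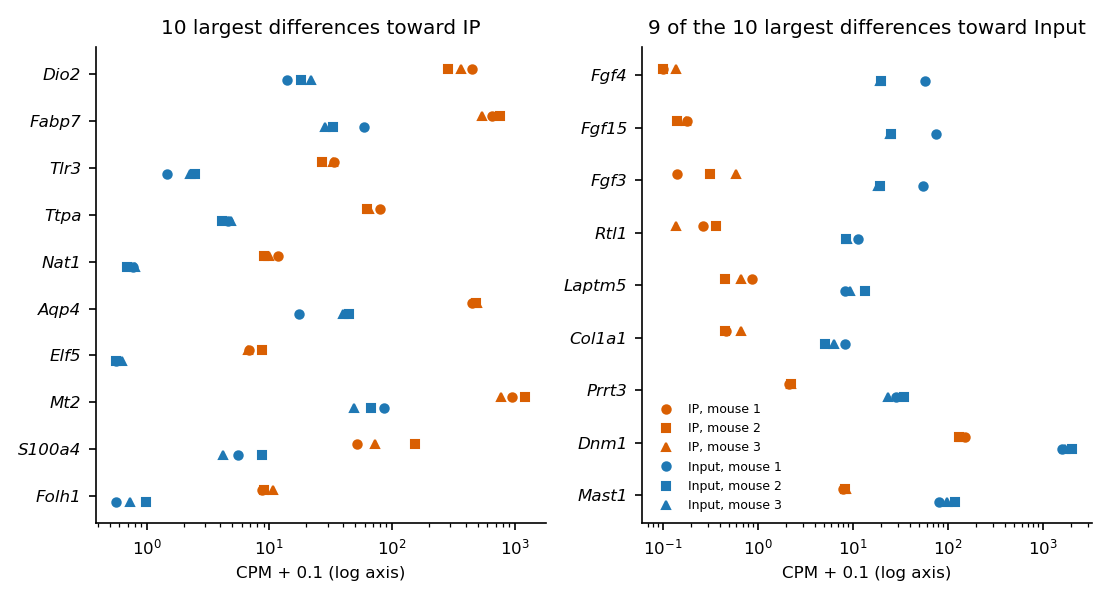
CPM + 0.1 (log axis) of the 10 protein-coding genes with the largest log2 fold change toward IP (left) and of 9 of the 10 with the largest toward Input (right) in each of the 6 cKO libraries; colour marks the fraction and shape the mouse. The rule that chose these genes required that their IP and Input values not overlap, and the Input points of mouse 1 are the highest for Fabp7, Fgf4, Fgf15 and Fgf3, among others.

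The protein-coding genes with the highest CPM in IP, a scale that does not correct for length, included Glul, Aldoc, Gm20388, Pea15a, Prdx6, Eef1a1, Ckb, Gfap and Apoe, and 6 of these differed by over 4-fold. Glul, the glutamine synthetase of astrocytes, led with 5069.6, 5054 and 6013 CPM in IP against 814, 983 and 835 CPM in Input (2.62 ± 0.20). Prdx6, a peroxidase that protects membrane lipids, was at 2759.7, 3428 and 2973 and 367, 329 and 268 CPM (3.25 ± 0.22), and Pea15a, a phosphoprotein of astrocytes, at 2805, 3248 and 3322 and 571, 681 and 606 CPM (2.34 ± 0.19). Per kilobase of exon, the mean level in IP was 1619 RPKM for Aldoc, 636 for Prdx6 and 1619 for Glul. Eef1a1, a translation elongation factor (0.80 ± 0.22, adjusted p = 0.0142), and Ckb, the brain creatine kinase (0.85 ± 0.28, adjusted p = 0.0307), were higher in IP by less, and both fell short of the threshold without mouse 2 or without mouse 3. Gm20388, a gene model that spans many other genes and whose count is uncertain, did not pass the test (-0.31 ± 0.18, adjusted p = 0.191). The strand setting of the counting is not given in the sources used here, so reads of overlapping genes cannot be told apart. Among the genes of these sets, Gfap, Dio2, Glul, Mt2, S100a4, Pea15a, Eef1a1, Dnm1 and Mast1 overlap another annotated gene.

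Genes for the classical work of astrocytes were described by list. Of 9 genes of glutamate uptake and recycling, 5 were higher in IP, each by over 2-fold, and 3 lower. The transporters that clear glutamate from synapses, Slc1a3 at 465, 519 and 724 CPM in IP and 51.8, 85.6 and 87.7 CPM in Input (2.94 ± 0.22) and Slc1a2 at 996, 1076 and 1379.7 and 154, 339 and 337 CPM (2.13 ± 0.25), were higher in IP. So were Glul, Slc38a3, which exports glutamine (2.16), and Glud1, glutamate dehydrogenase (2.04). Among those lower in IP were Slc17a7, which loads glutamate into synaptic vesicles (-2.84), and the neuronal glutamine importer Slc38a1 (-1.08). Slc38a2 was not called (-0.09, adjusted p = 0.696).

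Of 13 genes for potassium, water and gap junctions, 10 were higher in IP and 1 lower, with a median of 2.23. Behind Aqp4 came Kcnj16, an inward rectifier potassium channel subunit, at 46.6, 55.5 and 54.6 CPM in IP and 2.84, 6.45 and 6.28 CPM in Input (3.40 ± 0.25), then the connexins Gja1 and Gjb6 (3.02). Kcnj10, the main potassium channel of astrocytes, was at 179, 257 and 335 CPM in IP and 24.7, 76.3 and 77.98 CPM in Input (2.23 ± 0.26), with the lowest value of each fraction in mouse 1. Of the dystrophin-complex genes that anchor channels at endfeet, Dtna (0.90) was higher in IP, while Dag1 (-0.07, adjusted p = 0.795) was not called. Lrrc8a, a subunit of volume-regulated anion channels (0.14, adjusted p = 0.582), was not called either, and the cotransporter Slc12a2 was lower in IP (-1.05).

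Metabolic pathways were described in the same way. All 16 genes of mitochondrial fatty acid oxidation were higher in IP, 13 by over 2-fold, with a median of 1.93 and a range from 1.21 for Acadvl, the very long chain dehydrogenase, to 2.66 for Decr1, a reductase for unsaturated chains. Cpt1a, which admits fatty acids to mitochondria, stood at 34.8, 40.8 and 45.5 CPM in IP and 4.88, 11.4 and 9.82 CPM in Input (2.28 ± 0.23), and Hadhb, of the trifunctional protein, at 196, 178 and 188 and 37.2, 33.1 and 32.2 CPM (2.46 ± 0.19). Of 28 genes of glycolysis, lactate and glycogen, 7 were higher and 9 lower in IP (median -0.04), shares near those over all protein-coding genes, 26.2% and 32.7%. Those higher included Aldoc, the glycogen genes Pygb (1.38), Pygm (1.22) and Gys1 (0.91), the lactate transporter Slc16a1 (1.32) and the regulator Pfkfb3 (1.01). Those lower included the neuronal enolase Eno2 (-2.32), Pfkl (-1.76), Hk1 (-1.65), Pkm (-0.85) and the neuronal glucose transporter Slc2a3 (-0.80). Without mouse 1, 11 of the list were higher, and without mouse 2 or mouse 3 only 4 and 5 were lower.

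Of 19 genes of the TCA cycle, 8 were higher in IP, 1 lower and 10 not called, with a median of 0.03. Within that cycle, the alternative β subunits of succinyl-CoA ligase stood far apart. Suclg2, of the GTP-forming enzyme, was at 77.1, 66.5 and 73.7 CPM in IP and 7.72, 7.39 and 8.42 CPM in Input (3.21 ± 0.19, adjusted p = 4.69e-05), whereas Sucla2, of the ATP-forming enzyme, was at 152, 129.8 and 115 and 173, 112 and 128 CPM (-0.04 ± 0.19, adjusted p = 0.873). The NADP-linked Idh2 was also far higher in IP (2.43), while the NAD-linked Idh3a (0.03), Idh3b (-0.08) and Idh3g (0.19) were not called, and Ogdh was lower (-1.16). Without mouse 1, 3 were lower, and without mouse 3 only 5 were higher.

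Of 26 genes for serine, glycine and folate, 18 were higher in IP, 14 by over 2-fold, and 3 lower, with a median of 1.49. Several of these genes were picked by the study from the same libraries in a comparison of genotypes, so that the list is not independent evidence of its direction. The serine synthesis enzymes were all higher: Psat1 at 528, 501 and 541 CPM in IP and 79.3, 101 and 94.6 CPM in Input (2.52 ± 0.21), Psph at 125, 116 and 124 and 31.7, 24.6 and 25.7 CPM (2.16 ± 0.19) and Phgdh, which starts the pathway, at 156, 171 and 228 and 49.6, 44.1 and 40.3 CPM (2.03 ± 0.23). The glycine cleavage genes Gcsh (2.10), Gldc (2.08) and Amt (1.44) were higher too, as were Gatm, which makes the creatine precursor from glycine (2.16), and the mitochondrial folate enzymes Aldh1l2 (2.25), Mthfd2l (1.87) and Mthfd2 (1.55). Shmt1 (0.69, adjusted p = 0.0267) and Shmt2 (0.57, adjusted p = 0.0403), which interconvert serine and glycine, were higher by less than 2-fold. Among those lower in IP were Mthfd1l, a mitochondrial folate enzyme (-0.90), and the glycine transporter Slc6a9 (-0.73), and serine racemase, Srr, was not called (0.09, adjusted p = 0.735).

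Of 19 genes of cholesterol synthesis, 13 were higher in IP and 1 lower, with a median of 0.81, and of 1.03 without mouse 1. Idi1, an early isomerase of the pathway, was at 388, 359 and 364 CPM in IP and 53.2, 40.03 and 52.97 CPM in Input (2.94 ± 0.21), and Msmo1, a sterol oxidase, at 174, 242 and 242 and 47.3, 38.5 and 43.4 CPM (2.34 ± 0.23). Of 12 genes of lipoproteins and lipid transport, 6 were higher, all by over 2-fold, and 4 lower. The higher ones were Fabp7, Fabp5 (3.12), Lcat, which esterifies cholesterol on lipoproteins (3.02), Apoe, Clu (2.04) and Abca1 (1.74), and the lower ones Abcg1 (-2.65), the receptor Lrp1 (-1.85), Lpl (-1.35) and Apod (-1.16). Thus the 2 cholesterol exporters of the list, Abca1 and Abcg1, were called in opposite directions, Abca1 at 16.97, 26.8 and 28.1 CPM in IP and 4.12, 10.6 and 7.75 CPM in Input, and Abcg1 at 4.16, 3.80 and 2.65 and 16.1, 30.8 and 20.8 CPM.

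Of 16 antioxidant and metallothionein genes, 13 were higher in IP and none lower (median 2.11), with Mt2, Mt1 (3.50), the glutathione transferase Gstm1 (3.30), Prdx6 and Mt3 (2.50) at the top. Gclm (0.45, adjusted p = 0.093), Gclc (0.54, adjusted p = 0.0669) and Gpx1 (0.60, adjusted p = 0.104) did not pass the test. Of 12 genes of the integrated stress response, 5 were higher and 1 lower (median 0.47). Nupr1, a stress-induced chromatin factor, was at 233, 235 and 220.0 CPM in IP and 23.8, 16.3 and 14.2 CPM in Input (3.70 ± 0.23, adjusted p = 4.69e-05), ahead of Trib3 (1.86), Atf5 (1.18), Atf4 (0.81) and Ppp1r15a (0.59). Asns, asparagine synthetase, was lower in IP (-1.32, adjusted p = 0.00064). The count of those higher was 8 without mouse 1 and 3 without either other mouse.

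Of 22 transcription factors of the astrocyte lineage, 21 were higher in IP, 14 by over 2-fold, with a median of 1.88. The inhibitors of DNA binding led, with Id1 at 91.6, 86.2 and 94.4 CPM in IP and 18.4, 8.32 and 7.68 CPM in Input (3.10 ± 0.29) and Id3 at 336, 401 and 380.5 and 62.98, 40.3 and 34.3 CPM (3.07 ± 0.27). Dbx2, a homeobox factor, stood at 186, 187 and 183 CPM in IP and 29.7, 21.4 and 17.05 CPM in Input (3.06 ± 0.23), followed by Sox2 (2.71), Rfx4 (2.69), Id4 (2.68) and Sox9 (2.24). Of the nuclear factor I family, Nfia (1.40) and Nfib (1.20) were higher and Nfix lower (-1.06, adjusted p = 0.00371). Hes1, a Notch target, had the smallest value among those higher (0.79).

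Of 34 tested genes that mark reactive astrocytes, 21 were higher in IP, 17 by over 2-fold, and 6 lower, with a median of 1.64. Vim, another intermediate filament of reactive astrocytes, stood at 532, 1683 and 934 CPM in IP and 86.8, 214 and 93.9 CPM in Input (2.97 ± 0.23, adjusted p = 5.73e-05). Mouse 2 held the highest Vim value in both fractions. Serpina3n, a serine protease inhibitor, was at 20.9, 49.5 and 38.6 and 4.88, 10.7 and 7.65 CPM (2.22 ± 0.18), and Ptx3, a pentraxin and the member with the largest difference, at 3.17, 4.15 and 4.35 and 0.34, 0.424 and 0.386 CPM (3.33 ± 0.32). Emp1 (2.56), Gbp2 (2.56), Cd109 (2.52), Osmr (2.40), Hspb1 (2.16) and S100a10 (1.96) were higher as well. Cd44, a hyaluronan receptor, was at 18.7, 54.3 and 26.2 CPM in IP and 23.05, 12.6 and 9.96 CPM in Input and did not pass the test (1.08 ± 0.41, adjusted p = 0.0538), and the IP value of mouse 1 lay below its Input value. Lower in IP were Fbln5 (-1.44), Lcn2 (-1.28), Timp1 (-1.03), which lies within Syn1, Ptgs2 (-0.95), H2-T23 (-0.85) and Fkbp5 (-0.55), of which 3 passed without mouse 2 and 2 without mouse 3.

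Of 12 genes by which astrocytes form or prune synapses, 8 were higher in IP and 3 lower. Chrdl1, a secreted factor of upper-layer astrocytes that matures synapses, stood at 57.5, 74.01 and 85.7 CPM in IP and 3.69, 8.19 and 7.68 CPM in Input (3.53 ± 0.23, adjusted p = 4.69e-05), and the phagocytic receptors Megf10 (2.23) and Mertk (1.93) and the matrix proteins Sparc (1.74) and Sparcl1 (1.52) were higher too. The thrombospondins were split. Thbs4 was higher in IP (1.87), and Thbs1 (-1.51) and Thbs2 (-0.94) were lower, as was the adhesion protein Nlgn3 (-1.38), while Gpc4 was not called (0.24, adjusted p = 0.462). Only 1 of the 3 lower genes passed without mouse 2, and 1 without mouse 3.

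**Figure D3:**
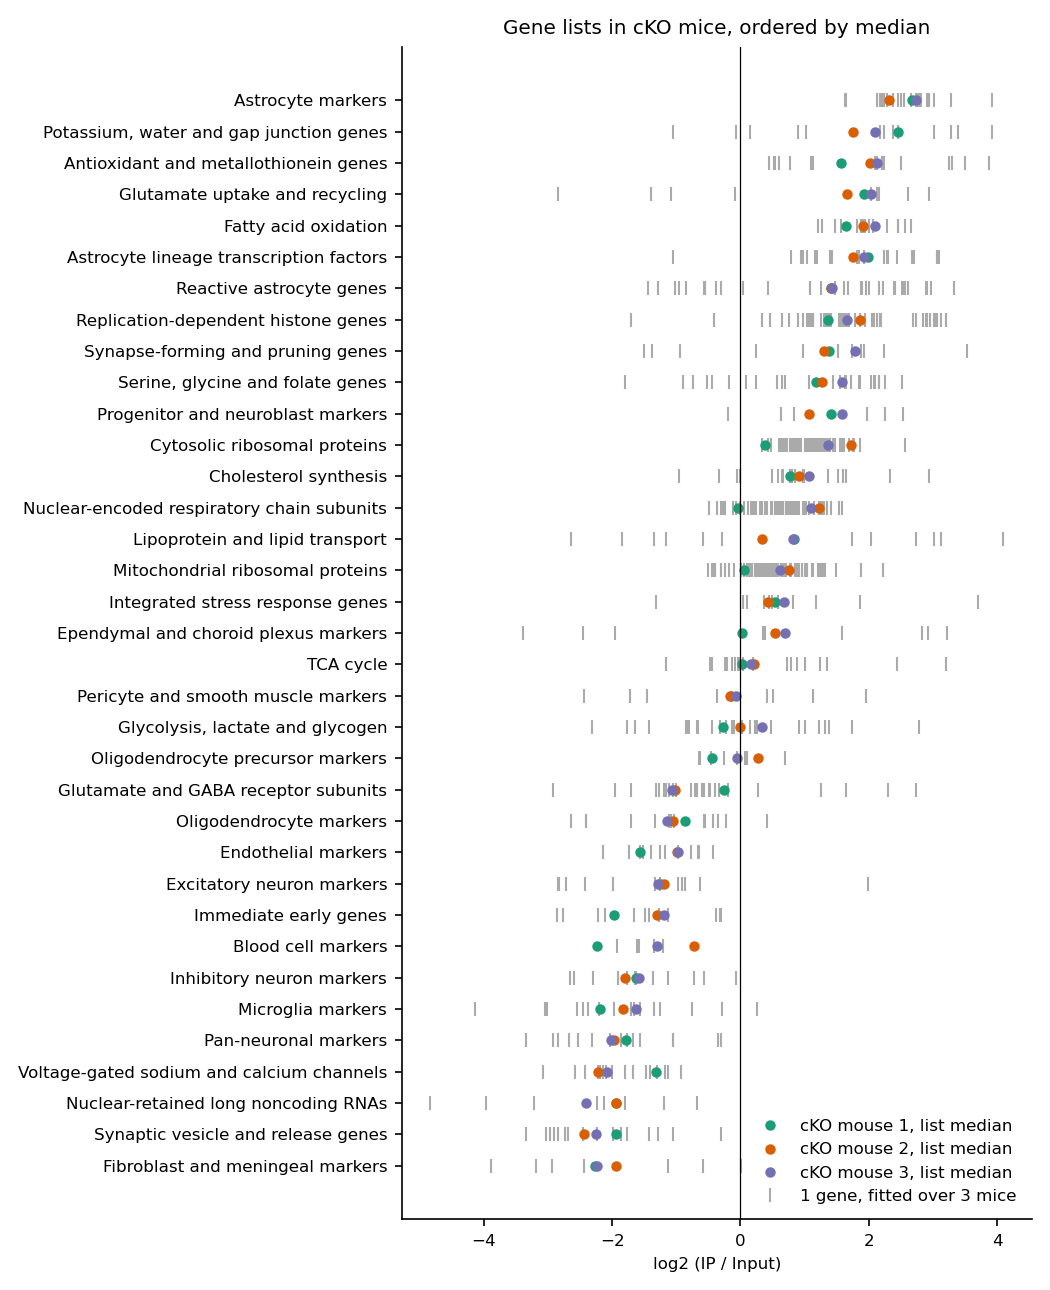
log2 of IP over Input (horizontal) for 35 gene lists of cKO mice, ordered by the list median; grey ticks are single genes fitted over the 3 mice and coloured points the list median within each mouse. Astrocyte markers are at the top with a median of 2.61, synaptic vesicle genes near the bottom with -2.35, and mouse 1 lies apart from the others for the ribosomal and respiratory chain lists.

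Neuronal genes were lower in IP. Of 15 pan-neuronal markers, 13 were lower, 11 by over 2-fold, and none higher, with a median of -1.87. Syn1, a synaptic vesicle phosphoprotein, stood at 73.02, 65.6 and 71.1 CPM in IP and 527, 877 and 769 CPM in Input, 10.1-fold lower (-3.34 ± 0.25, adjusted p = 5.6e-05). Exceptions were Snap25, a release protein, at 1489, 1433 and 1397 CPM in IP and 1796, 1667 and 1855 CPM in Input (-0.30 ± 0.18, adjusted p = 0.2), and the dendritic protein Map2 (-0.34 ± 0.27, adjusted p = 0.313), neither of which passed the test. The summed CPM of the list lay between 3531 and 3734 in IP and between 9639 and 10169 in Input, so that neuronal transcripts remained well above the floor in the IP libraries.

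Of 12 excitatory neuron markers, 11 were lower in IP and 1 higher (median -1.30, and -1.20 without mouse 1). Camk2a, the kinase of glutamatergic synapses, was at 174, 147 and 147 CPM in IP and 773, 1452 and 1194 CPM in Input (-2.83 ± 0.27). The exception was Rorb, a nuclear receptor of layer 4 neurons that astrocytes make as well, at 101, 85.5 and 90.7 CPM in IP and 20.8, 23.2 and 25.9 CPM in Input (1.99 ± 0.20, adjusted p = 0.000126). Of 12 inhibitory neuron markers, 11 were lower (median -1.64), from Slc32a1, the GABA vesicle transporter (-2.66), to Dlx1 (-0.57), and Dlx6 was not called (-0.07, adjusted p = 0.803). Of 12 immediate early genes, which mark recent activity, 9 were lower and none higher (median -1.46), led by Egr1 at 46.5, 45.2 and 41.6 CPM in IP and 400.0, 303 and 276 CPM in Input (-2.86 ± 0.21), whereas Fos (-0.38, adjusted p = 0.135), Btg2 (-0.32, adjusted p = 0.304) and Dusp1 (-0.31, adjusted p = 0.177) were not called.

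Of 16 synaptic vesicle and release genes, 15 were lower in IP, 13 by over 2-fold (median -2.35), the exception being Snap25. All 16 voltage-gated sodium and calcium channel genes were lower, 10 by over 2-fold (median -1.90), with Cacna1i, a T-type calcium channel, the farthest from 0 (-3.07). Of 25 glutamate and GABA receptor subunits, 15 were lower and 4 higher (median -0.67). Grin1, the obligatory subunit of NMDA receptors, was at 27.3, 28.9 and 32.6 CPM in IP and 164, 308 and 223 CPM in Input (-2.92 ± 0.24). The 4 higher ones were Gabrg1, a γ subunit of GABA-A receptors, at 28.9, 33.6 and 35.96 and 5.64, 4.58 and 4.49 CPM (2.74 ± 0.21), Grm3, a metabotropic glutamate receptor, at 72.1, 85.7 and 101 and 9.68, 22.9 and 23.3 CPM (2.30 ± 0.24), Grin2c (1.64) and Gabrb1 (1.25), all of which are also known from astrocytes. For this list the median of mouse 1 was -0.25, against -1.02 and -1.07 in mice 2 and 3, and without mouse 1 it had 19 members lower and 5 higher. Without mouse 2 or mouse 3 it had 9 lower.

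Among the protein-coding genes with the largest differences toward Input, several belong to neurons. Dnm1, the dynamin of synaptic vesicle recycling, was at 151, 131 and 139 CPM in IP and 1615, 2014 and 1712 CPM in Input (-3.66 ± 0.22, adjusted p = 4.69e-05). Its values varied little among the mice of either fraction. Mast1, a microtubule-associated kinase, was at 7.78, 8.30 and 8.48 and 81.4, 119.9 and 97.6 CPM (-3.59 ± 0.21). Prrt3 was at 2.06, 2.14 and 2.16 and 28.3, 34.3 and 23.5 CPM (-3.74 ± 0.22). Rtl1, an imprinted gene derived from a retrotransposon, was at 0.165, 0.262 and 0.0379 CPM in IP, at or near the floor, and 11.3, 8.40 and 8.63 CPM in Input, so no fold change is given for it. Laptm5, Col1a1 and 3 Fgf genes of the set are described with their own groups.

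Markers of other cells showed how far the IP libraries left them behind. Of 16 microglia markers, 14 were lower in IP and none higher (median -1.84), although 1 was higher without mouse 1. Of the 2 not called, P2ry12, a purine receptor, had -0.29 (adjusted p = 0.415), and the other had the highest value of the list, 0.26. The summed CPM of the list ranged from 142 to 263 in IP and from 256 to 327 in Input, and these ranges overlap. Laptm5, a lysosomal protein of microglia, was at 0.783, 0.349 and 0.568 CPM in IP and 8.15, 13.4 and 9.33 CPM in Input (-4.14 ± 0.37), and C1qa, of complement, at 0.535, 1.18 and 1.51 and 8.83, 10.2 and 6.63 CPM (-3.02 ± 0.37). Of 12 tested endothelial markers, 6 were lower and none higher, all at low levels. Their summed CPM was between 11.9 and 14.9 in IP and between 29.4 and 38.96 in Input. Of 7 tested fibroblast and meningeal markers, 5 were lower (median -2.44, and -2.68 over 6 tested without mouse 1). The collagen Col1a1 was at 0.371, 0.349 and 0.568 CPM in IP and 8.23, 4.97 and 6.21 CPM in Input (-3.88 ± 0.32). All 5 blood cell markers were lower (median -1.58, and -0.99 without mouse 1, whose Input library held the most globin).

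Markers of the oligodendrocyte lineage had smaller differences. Of 14 oligodendrocyte markers, 10 were lower in IP, 4 by over 2-fold, and none higher (median -1.06). Myrf, the myelin regulatory factor (-2.64), and Mag (-2.41) had the largest differences, whereas Mobp, Opalin, Ermn and Aspa were not called. Without mouse 1, 1 of the 14 was higher. Of 9 oligodendrocyte precursor markers, 1 was lower, Gpr17 (-0.64), 1 higher, Lhfpl3 (0.70), and 7 were not called (median -0.06), among them Pdgfra at 7.13, 11.9 and 8.10 CPM in IP and 9.76, 14.3 and 12.9 CPM in Input (-0.46 ± 0.19, adjusted p = 0.0692). The summed CPM of the precursor markers ranged from 223 to 371 in IP and from 297 to 315 in Input. Calls among precursor markers moved with single mice, to 2 higher and 3 lower without mouse 1, to none higher without mouse 2 and to none lower without mouse 3.

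A few markers of other cells were higher in IP. Of 8 tested markers of pericytes and smooth muscle, Acta2, smooth muscle actin, at 5.85, 4.63 and 5.41 CPM in IP and 1.91, 1.27 and 1.02 CPM in Input (1.95 ± 0.28), and Tagln (1.14) were higher, and Anpep (-2.44), Vtn (-1.72) and Myh11 (-1.46) lower. Of 9 tested ependymal and choroid plexus markers, the genes of motile cilia Ccdc153, at 21.6, 17.9 and 15.1 and 2.76, 1.53 and 1.68 CPM (3.21 ± 0.22), Tmem212 (2.92), Dynlrb2 (2.83) and Foxj1 (1.58) were higher. In the same list the choroid plexus genes Ttr (-3.39), Clic6 (-2.46) and Kl (-1.95) were lower. Of 6 progenitor markers, 5 were higher, including the proliferation genes Top2a, at 9.80, 6.94 and 7.04 CPM in IP and 1.78, 1.70 and 1.47 CPM in Input (2.25 ± 0.24), and Mki67 (2.54), while the neuroblast marker Dcx was not called (-0.19, adjusted p = 0.595). Without mouse 3, 3 of the 6 were higher, and without mouse 1, 1 was lower. The part of other cell types in the values of genes they share with astrocytes was not tested.

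The counts for genes of the ribosome and the respiratory chain moved with single mice. Of 81 tested genes for cytosolic ribosomal proteins, 71 were higher in IP, 7 by over 2-fold, and none lower, with a median of 1.16. The list medians of mice 1, 2 and 3 were 0.39, 1.73 and 1.36, and without mouse 1 the fitted median was 1.57, with 80 higher. Rps27l, at 63.9, 72.1 and 55.6 CPM in IP and 16.3, 8.53 and 8.77 CPM in Input (2.57 ± 0.25), had the largest difference and Rps2 the smallest (0.34, adjusted p = 0.285). Of 76 nuclear-encoded subunits of the respiratory chain, 37 were higher and none lower (median 0.76), from Uqcrh (1.58) to Uqcrc1 (-0.48, adjusted p = 0.1). The mice differed here too, with medians of -0.04, 1.22 and 1.09, and 64 were higher without mouse 1 but 19 without mouse 2 or mouse 3. Of 78 mitochondrial ribosomal protein genes, 34 were higher and none lower (median 0.48), and without mouse 1 these counts were 60 and 1. Without mouse 2, 17 were higher, and without mouse 3, 18. Mrps6 had the largest value (2.23) and Mrps26 the smallest (-0.50, adjusted p = 0.117).

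Over all protein-coding genes, log2 fold changes fell with exonic length. The median was 0.28 in the fifth with the shortest exonic length (27 to 2349 bases), then -0.04, -0.16 and -0.30, and -0.41 in the longest (7477 to 123179 bases). In Ctrl mice the corresponding medians ran from 0.34 to -0.42. Ribosomal and respiratory chain genes are short, with median exonic lengths of 1739 and 1737 bases, against 4176 bases for the astrocyte markers, and the part of length in their values was not tested. Of 2867 processed pseudogenes tested, 1232 were higher and 202 lower in IP (median 0.68). Their counts are uncertain, since they share sequence with their parent genes. Of 56 tested histone genes of the replication-dependent kind, 48 were higher and 1, Hist3h2ba (-1.71), lower (median 1.63), the largest being Hist1h2bj (3.21), and these near-identical multicopy genes are uncertain in the same way.

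Several noncoding RNAs stood among the genes with the largest differences toward Input. Of 8 long noncoding RNAs known to stay in the nucleus, 7 were lower in IP, 6 by over 2-fold, and none higher (median -2.18). Malat1, of nuclear speckles, was at 10.8, 13.3 and 6.62 CPM in IP and 480.2, 213 and 214 CPM in Input (-4.83 ± 0.33, adjusted p = 5.07e-05), with more than 2 times as much in the Input of mouse 1 as in the others. Meg3, an imprinted transcript, was at 23.1, 17.9 and 18.8 and 210.3, 335 and 418 CPM (-3.96 ± 0.30). Neat1, of paraspeckles, did not pass the test (-0.68, adjusted p = 0.0668), and Kcnq1ot1 had the smallest difference among those called (-1.20).

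Bc1, a short noncoding RNA that neurons make with RNA polymerase III and send to dendrites, had one of the largest differences toward Input. It lies at chr7:144914470-144914637 (GRCm38, + strand) and was chosen for description after its values were seen. Its transcript of 168 bases in GENCODE release 21 is shown because the RNA was purified on oligo-dT beads, and the capitals mark its longest run of A, 23 bases long.
Bc1: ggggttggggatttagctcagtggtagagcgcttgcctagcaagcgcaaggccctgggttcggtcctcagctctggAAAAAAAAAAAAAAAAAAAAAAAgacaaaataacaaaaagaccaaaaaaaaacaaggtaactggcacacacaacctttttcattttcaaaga
Bc1 stood at 3.67, 4.63 and 6.32 CPM in IP and 3044, 922 and 916 CPM in Input (-8.13 ± 0.56, adjusted p = 5.07e-05). The Input of mouse 1 held 3.31 times the mean of the other Input libraries, and the IP and Input values did not come near each other. In Ctrl mice the log2 fold change was -6.91.

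The 3 protein-coding genes with the largest differences toward Input lie upstream of Bc1 on the same strand. Fgf4 was counted at 0, 0 and 1 reads in IP and 1363, 462 and 546 reads in Input, Fgf15 at 2, 1 and 2 reads in IP and 1766, 600 and 706 in Input, and Fgf3 at 1, 5 and 13 reads in IP and 1289, 451 and 523 in Input. With IP counts at or near the floor, no fold change is given for them. Their Input counts followed those of Bc1 from library to library. They came to between 2.46% and 2.76% of the Bc1 count for Fgf15, 13517 bases away, between 1.90% and 2.13% for Fgf4 and between 1.80% and 2.08% for Fgf3. Gm44930, 164462 bases from Bc1, had between 1.12% and 1.33%. Whether these reads come from transcripts of the Fgf genes cannot be seen from gene counts, and the values of these genes are uncertain. Gm9711, a processed pseudogene 122148 bases from Bc1, had between 1.38% and 1.65% of the Bc1 count in Input. Unlike the Fgf genes it held 52, 62 and 91 reads in IP, and it is left out of the figure.

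**Figure D4:**
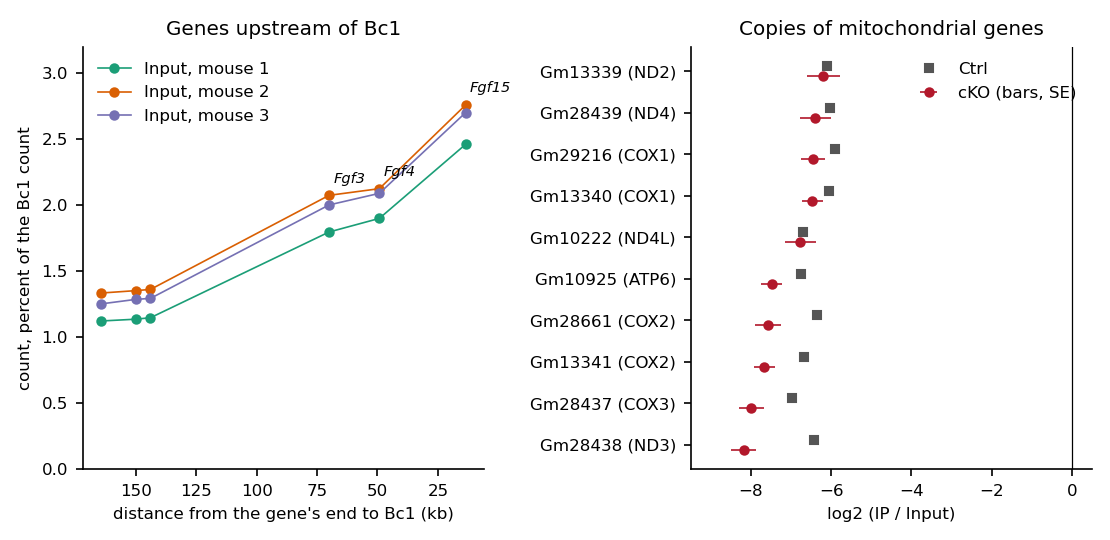
Left, Input counts of genes upstream of Bc1 as a percentage of the Bc1 count (vertical) against the distance from the end of the gene to Bc1 in kilobases, 1 line per cKO mouse. Gm9711 is not drawn. The percentage is between 1.12 and 1.33 at the far end and between 2.46 and 2.76 at Fgf15. Right, log2 of IP over Input (horizontal) of 10 nuclear copies of mitochondrial genes, named in brackets, in cKO mice with their SE and in Ctrl mice, from -6.19 to -8.18 in cKO.

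Genes encoded by the mitochondrial genome are not among the rows of the table, and 10 unprocessed pseudogenes that resemble them closely were nearly absent from IP. Of these copies, 7 lie at chr1:24611535-24616197 and 3 at chr2:22587291-22590533 (GRCm38), and they are between 95.9% and 100% identical to the mitochondrial genome. A stretch of each kind is shown to let the likeness be read. The first 90 bases of the coding strand of Gm28437 (chr1:24613882-24613971, - strand) have no difference from COX3 (chrM:8607-8696).
Gm28437: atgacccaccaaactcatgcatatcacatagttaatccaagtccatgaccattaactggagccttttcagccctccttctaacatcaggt
Those of Gm13341 (chr2:22587873-22587962, - strand) differ from COX2 (chrM:7013-7102) at 2 bases, in capitals.
Gm13341: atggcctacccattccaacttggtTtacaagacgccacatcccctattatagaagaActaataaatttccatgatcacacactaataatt
COX2: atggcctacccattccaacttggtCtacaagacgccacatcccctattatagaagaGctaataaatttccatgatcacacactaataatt
Summed over the 10 copies, they took between 0.271% and 0.335% of the counts of the Input libraries and between 0.00154% and 0.00256% of the IP libraries. Gm28437 was at 3.58, 3.71 and 1.78 CPM in IP and 992, 667 and 597 CPM in Input (-7.99 ± 0.30, adjusted p = 1.46e-05), and the log2 fold changes of all 10 lay between -6.19 and -8.18. In Ctrl mice they lay between -5.90 and -6.97. Gene counts cannot tell reads of the nuclear copies from reads of the mitochondrial genes, which mitochondrial ribosomes translate.

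The same comparison in Ctrl mice gave 17332 calls among 24385 genes (71.1%), with 35.4% of genes higher and 35.7% lower in IP. Of the 23426 genes tested in both genotypes the log2 fold changes correlated at r = 0.926 (Spearman rho 0.932), a description across genes. Of the genes tested in both and higher in IP in cKO mice, 94.3% were also called higher in Ctrl mice, and these were 72.0% of the genes called higher there. For genes lower in IP the shares were 94.99% and 71.7%, and 16 genes were called in opposite directions. The typical size of a difference was close, with a median absolute log2 fold change of 0.793 in cKO and 0.804 in Ctrl mice, but its median SE was 0.236 in cKO and 0.138 in Ctrl mice. Levels were normalized within each genotype, so fold changes rather than levels are set side by side, apart from the summed astrocyte markers and reactive genes below.

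All 22 astrocyte markers had a smaller log2 fold change in cKO than in Ctrl mice, with list medians of 2.61 and 3.39. Summed over the list, IP CPM lay between 13866 and 19120 in cKO and between 15403 and 20396 in Ctrl mice. Input CPM lay between 2118 and 2845 in cKO and between 1473 and 1771 in Ctrl mice, each genotype normalized by itself. The test of the difference between genotypes, an interaction of fraction and genotype in all 12 libraries, called none of the 22, and 17 had an unadjusted p under 0.05, against 7.92% of all 25768 genes. Gfap, for example, was at 2.91 in cKO and 3.67 in Ctrl mice (difference -0.76 ± 0.19, adjusted p = 0.283), and Apoe at 2.73 and 3.88 (-1.15 ± 0.25, adjusted p = 0.253). The median was also smaller in cKO for transcription factors, with 21 of 22 members smaller (1.88 and 2.62), and fatty acid oxidation, with 16 of 16 smaller (1.93 and 2.44). For histones, whose counts are uncertain, all 54 members tested in both genotypes were smaller (1.63 and 2.70). Other lists were as one-sided, among them potassium, water and gap junction genes, with all 13 smaller, and progenitor markers, with all 6 smaller. Cytosolic ribosomal protein genes went the other way, with 73 larger and 8 smaller in cKO. Over all genes tested in cKO mice the median difference was -0.02. The reactive list had medians of 1.64 over 34 genes in cKO and 0.58 over 32 in Ctrl mice. But of the members tested in both genotypes 16 were smaller and 16 larger in cKO, with a median difference of 0.03. In the test of the difference, 10 members had an unadjusted p under 0.05. Summed over the members tested, CPM lay between 3308 and 5222 in cKO IP and between 1939 and 2231 in Ctrl IP. In Input the sums lay between 584 and 897 in cKO and between 267 and 337 in Ctrl mice, each genotype normalized by itself. No member of these lists was called in the test of the difference.

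**Figure D5:**
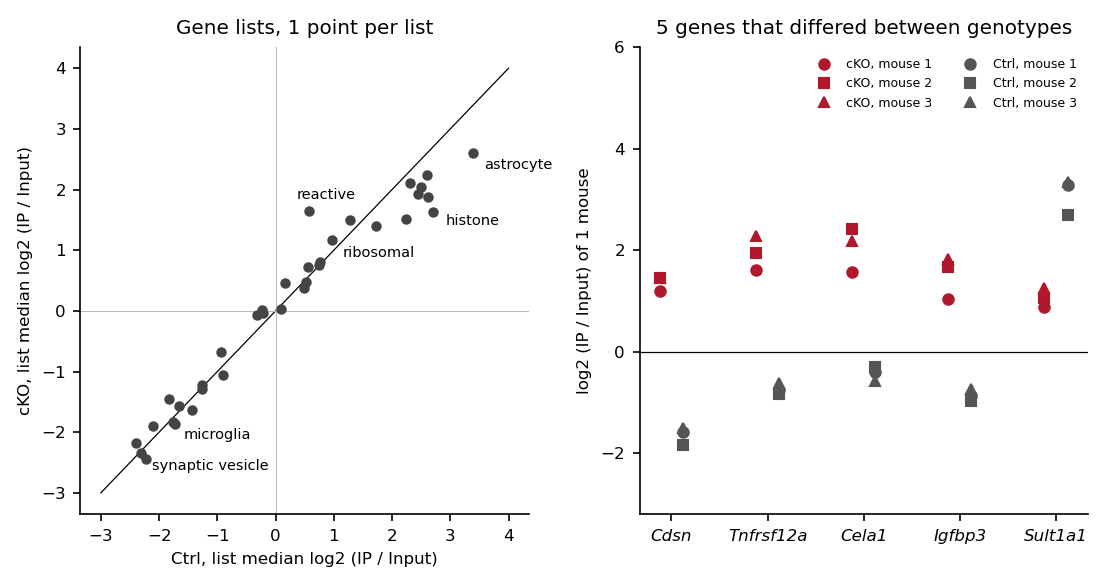
Left, median log2 of IP over Input of each gene list in cKO (vertical) against Ctrl mice (horizontal), with the line of equality; the astrocyte list lies below it (2.61 and 3.39) and the reactive list above it (1.64 over 34 genes and 0.58 over 32), although 16 of its members were smaller and 16 larger in cKO. Right, log2 of IP over Input within each mouse for the 5 named genes that passed the test of the difference between genotypes, with cKO mice in red and Ctrl mice in grey.

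The test of the difference called 6 genes of 25768 (0.0233%), 4 with a larger (0.0155%) and 2 with a smaller (0.00776%) IP over Input ratio in cKO mice, and 5 of them are described here. Without cKO mouse 1 the count was 172, of which 102 were larger and 70 smaller, while it was 12 without cKO mouse 2, 1 without cKO mouse 3 and 2 without either Ctrl mouse 1 or Ctrl mouse 2. Cdsn (chr17:35552128-35557180), corneodesmosin, an adhesion protein of the skin, had log2 ratios of 1.20, 1.46 and 1.45 in cKO mice 1, 2 and 3 and -1.58, -1.85 and -1.51 in Ctrl mice. Every cKO ratio was above and every Ctrl ratio below 0, a difference of 3.17 ± 0.29 (SE, adjusted p = 0.00909). In cKO mice its level was highest in mouse 2 in both fractions, with 4.28, 15.2 and 9.12 CPM in IP and 1.83, 5.48 and 3.30 CPM in Input. Tnfrsf12a, the receptor of the cytokine TWEAK, had ratios of 1.60, 1.94 and 2.28 in cKO and -0.75, -0.84 and -0.62 in Ctrl mice (difference 2.76 ± 0.31, adjusted p = 0.0252), at 9.80, 11.9 and 10.5 CPM in cKO IP. Cela1, an elastase, had ratios of 1.56, 2.41 and 2.17 in cKO and -0.40, -0.30 and -0.58 in Ctrl mice (2.51 ± 0.29, adjusted p = 0.0252). Igfbp3, which binds insulin-like growth factors outside cells, had ratios of 1.03, 1.67 and 1.82 in cKO and -0.88, -0.96 and -0.74 in Ctrl mice (2.39 ± 0.25, adjusted p = 0.0241).

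These 4 genes were higher in IP in cKO mice and lower in IP in Ctrl mice. Sult1a1, a phenol sulfotransferase, was higher in IP in both genotypes, with ratios of 0.88, 1.06 and 1.26 in cKO and 3.28, 2.70 and 3.34 in Ctrl mice, but less so in cKO (-2.06 ± 0.23, adjusted p = 0.0252). In cKO mice it was at 13.01, 8.82 and 9.09 CPM in IP and 7.05, 4.20 and 3.75 CPM in Input. Leaving out cKO mouse 3, Ctrl mouse 1 or Ctrl mouse 2 ended the call for each of the 5 genes. Leaving out Ctrl mouse 3 ended it for Sult1a1, Igfbp3, Cela1 and Tnfrsf12a, and a fit without the replicate block ended it for Sult1a1, Tnfrsf12a and Cdsn, with adjusted p of 0.103, 0.0819 and 0.102. The difference for Cdsn without cKO mouse 3, Ctrl mouse 1 and Ctrl mouse 2 was 3.13, 3.23 and 3.06, and that for Sult1a1 -2.16, -1.96 and -2.25.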

How the data were processed

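RNA was sequenced from IP and Input fractions of cKO and Ctrl cortex by TRAP-Seq, with the NEBNext Ultra kit. The authors aligned reads to mm10 with STAR in Galaxy and tested with edgeR, as their methods and processing notes state. The deposited table holds raw counts per Ensembl gene, and the counting tool, annotation and strand setting are not given in the sources used here. Symbols, positions and sequences came from GENCODE M21 (GRCm38), which matched 53237 of 53342 identifiers.

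Counts were filtered with filterByExpr (minimum count 10, minimum total 15) and scaled by TMM within each genotype. They were tested with edgeR 4.0.16 in R 4.3.3 (glmQLFTest, glmTreat against 2-fold, two-sided), with Benjamini-Hochberg adjustment over all genes tested. SE is the log2 fold change divided by the root of F. The mouse was a block, since both fractions of a number come from the same animal. Deviations of the paired libraries from their group means correlated at -0.048, -0.102 and 0.122 in cKO mice. The method was tested on simulated data, which held no mouse effect and no library like the Input of mouse 1.

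The rule for named genes took the 10 protein-coding genes with the largest differences in each direction (mean log2 CPM of at least 1, no overlap), the 10 most abundant in IP, the 5 largest differences between genotypes in each direction, 4 markers, and members of gene lists at either end or against a list's direction. Other members of the lists were named after their values were seen, as were Bc1, the pseudogenes and their neighbours. The members and lists were chosen with earlier results of these data known. The 16 libraries of the series outside TRAP-Seq were not used here, and the deleted gene and some other genes that the rule or the lists hold are not reported here.

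The alternatives were another scaling or filter, DESeq2 1.42.0, the likelihood ratio test, no block, a single fit of all 12 libraries, and the omission of each mouse in turn. Sequences were matched with blastn 2.17.0.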

Additional observations from a re-analysis of the deposited data

Results flagged for a closer look

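In 5 genes the ratio of IP over Input differed between the genotypes in edgeR's test of the difference itself, the interaction of fraction and genotype with Benjamini-Hochberg adjustment over 25768 genes. The log2 difference, cKO minus Ctrl, was 3.17 for Cdsn, 2.758 for Tnfrsf12a, 2.505 for Cela1, 2.389 for Igfbp3 and -2.058 for Sult1a1. The first 4 were higher in IP in all 3 cKO mice and lower in IP in all 3 Ctrl mice, and Sult1a1 was higher in IP in all 6 mice. All 5 also passed without cKO mouse 1, whose Input library stood apart from the others, and without cKO mouse 2. All 5 failed without cKO mouse 3, without Ctrl mouse 1 and without Ctrl mouse 2, 4 of 5 failed without Ctrl mouse 3, and 3 of 5 failed without the replicate block. Sult1a1 overlaps Sgf29.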

How the results depend on the processing

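The count of genes that differed between IP and Input in cKO mice, 12943, lay between 12029 and 15229 under the alternatives for scaling, filter, tool and samples, and the count over 2-fold, 4382, between 3869 and 5195. Without the replicate block they were 13526 and 4653. Leaving out each mouse gave between 9523 and 16482 calls, and between 3041 and 6897 over 2-fold, with 6897 (3591 higher, 3306 lower) without mouse 1. The Ctrl count stayed between 15410 and 18243. The count of genes that differed between genotypes, 6 by the quasi-likelihood test, was 15 without the replicate block, 15 with at least 10 counts in every library, 169 with DESeq2, 247 with the likelihood ratio test and 413 with no filter, where the cause was not tested. Leaving out single mice gave between 1 and 172, with 172 without cKO mouse 1, 12 without cKO mouse 2, 1 without cKO mouse 3, and 2 without either Ctrl mouse 1 or Ctrl mouse 2. Of the list counts recomputed, 541 stayed within 1.5 times and 35 moved, and of the list medians 266 moved by less than the spread between mice and 22 by more. No named gene recomputed under these alternatives changed direction. With 3 mice per genotype an exact permutation test of 3 against 3 cannot go below 0.1, and a sign test of 3 pairs not below 0.25, so single genes were tested only in the models over all genes.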

Other observations

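A few gene models within the span of another gene were counted in some libraries and absent from others. Gm15807, within the span of 2900011O08Rik on chromosome 16, held 0 reads in each of the 3 cKO IP libraries and 189, 285 and 354 in cKO Input. Ctrl IP held 160, 177 and 193 and Ctrl Input 0, 291 and 260. Gm15806, beside it, held 132, 117 and 138 reads in cKO IP and 2, 287 and 359 in cKO Input, and in Ctrl mice 179, 193 and 206 in IP and 2, 293 and 1 in Input. Gm43999, within Mgll on chromosome 6, held 315, 313 and 318 reads in cKO IP and 0, 1 and 0 in cKO Input, and 252, 251 and 260 in Ctrl IP and 86, 63 and 0 in Ctrl Input. Its neighbour Gm44005 held 320, 318 and 320 reads in cKO IP and 5, 7 and 109 in cKO Input, and 256, 255 and 264 in Ctrl IP and 89, 67 and 6 in Ctrl Input.

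Of the gene types other than protein-coding, snoRNA genes had 89 of 261 higher and 26 lower in IP (median 0.49), lincRNA genes 281 of 1024 higher and 169 lower (median 0.16), and antisense genes 319 of 1654 higher and 463 lower (median -0.22). Over all genes tested, 27.3% were higher and 26.6% lower in IP, near the lincRNA share higher and the antisense share lower. The counts of genes that lie inside or across others are uncertain for the reason given with the overlapping genes.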
